A study of Homo sapiens with 2 samples.

Results

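The let-7 and miR-98 family is a group of microRNAs that share 1 seed, and 9 of its 5p members were followed in small extracellular vesicles (sEVs). The 9 members were taken by name from the 1315 mature miRNAs listed in the deposited count table, and all 9 were listed. The table held 1 library of sEVs from MCF-10A, a mammary epithelial line that is not cancerous, and 1 library of sEVs from MDA-MB-231, a triple-negative breast cancer cell line. Both lines were labelled as wild type and as epithelial cells, with no treatment named. The sEVs were pelleted by ultracentrifugation from EV-free medium. The labels describe the growth medium, with fetal bovine serum, for MDA-MB-231 alone. The study asked whether and in what way sEVs of tumour cells act on white adipose tissue. For its candidate miRNA the paper refers to sEV sequencing reported earlier, which it names as another deposited data set than the one used here. Whether these libraries also belong to that set is not stated. With 1 library per cell line, no difference below could be checked against replicates, and p-values are not given.

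Let-7 was among the first microRNAs to be found, and its mature sequence is conserved from worms to humans. Mature let-7 builds up as cells differentiate, while LIN28 proteins bind let-7 precursors and block their processing in stem cells and in many tumours. Its well known targets include RAS genes, HMGA2 and MYC, and low let-7 is a recognised feature of undifferentiated breast cancer cells. Members with the same seed can recognise the same sites, so that the pooled level is given beside the single members.

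The mature sequences show why the members are treated as a family and which of them are hard to tell apart by sequencing. They are RefSeq sequences (GRCh38.p14) written 5′ to 3′, with the seed, bases 2 to 8, in capitals.
hsa-let-7a-5p: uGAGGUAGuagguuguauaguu
hsa-let-7b-5p: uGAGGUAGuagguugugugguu
hsa-let-7c-5p: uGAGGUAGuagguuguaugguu
hsa-let-7d-5p: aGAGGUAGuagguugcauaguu
hsa-let-7e-5p: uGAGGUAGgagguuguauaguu
hsa-let-7f-5p: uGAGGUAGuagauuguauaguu
hsa-let-7g-5p: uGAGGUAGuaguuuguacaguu
hsa-let-7i-5p: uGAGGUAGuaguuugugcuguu
hsa-miR-98-5p: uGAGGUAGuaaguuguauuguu
All 9 were 22 bases long, and 14 of the 22 positions held the same base in every member. Counted from the 5′ end of let-7a-5p, let-7f-5p differed by G12A alone, let-7c-5p by A19G alone and let-7e-5p by U9G alone. Let-7b-5p differed by A17G and A19G, which placed it 1 base from let-7c-5p. Of the 36 pairs of members, 4 were 1 base apart, and these pairs joined let-7a-5p, let-7b-5p, let-7c-5p, let-7e-5p and let-7f-5p into 1 chain. Let-7g-5p (G12U, U18C) and let-7i-5p (G12U, A17G, U18C, A19U) shared 2 changes that no other member had, and were 2 bases from each other. Let-7d-5p (U1A, U16C) was the single member that began with A, and miR-98-5p carried G11A and A19U. How reads that matched several members were counted is not given in the sources used here, so the split among members 1 base apart is uncertain. If such reads were counted for each member they matched, sums over members hold them more than once.

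The 9 members come from 12 hairpins, whose bounds were the same in RefSeq and in GENCODE v29 (GRCh38, which is hg38, the build named in the submitters' processing notes). A set of 3 hairpins, let-7a-1, let-7f-1 and let-7d, spans 2964 bases of chromosome 9 (94175957 to 94178920, plus strand) in an intron of the lincRNA AL158152.2. Let-7a-3 and let-7b lie on chromosome 22 (46112749 to 46113768, plus strand) in exonic sequence of the lincRNA MIRLET7BHG. Let-7f-2 and miR-98 lie on chromosome X (53556223 to 53557274, minus strand) in an intron of HUWE1. Let-7a-2 on chromosome 11 (122146522 to 122146593, minus strand) lies in an intron of MIR100HG near miR-100. Let-7c on chromosome 21 (16539828 to 16539911, plus strand) lies in an intron of MIR99AHG near miR-99a, and let-7e on chromosome 19 (51692786 to 51692864, plus strand) lies in an intron of SPACA6 between miR-99b and miR-125a. Let-7g on chromosome 3 (52268278 to 52268361, minus strand, an intron of WDR82) and let-7i on chromosome 12 (62603686 to 62603769, plus strand, an intron of the lincRNA AC048341.1) had none of the other hairpins considered here within 60000 bases. Mature let-7a-5p is made from 3 of these hairpins and let-7f-5p from 2, and their counts cannot be assigned to a locus.

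The libraries were shallow, with total counts of 11529 in the MCF-10A library and 18397 in the MDA-MB-231 library. A count of 0 therefore allowed a share of up to 0.0260% and 0.0163%, respectively. All intervals are 95% intervals that cover counting error alone (no molecular identifiers are named, so reads are not separate molecules), and they compare these 2 libraries rather than the cell lines. Wilson intervals are given for shares, and exact conditional binomial intervals for ratios of shares. miR-182-5p and miR-451a took 46.6% and 11.8% of the counts in the MCF-10A library and 51.0% and 19.4% in the other. The 7 epithelial miRNAs looked up as a check of the labels, all listed, summed to 0.685% of the MCF-10A library and 0.114% of the MDA-MB-231 library. Their members were mixed. miR-205-5p (41 and 0 counts), miR-200c-3p (19 and 3), miR-200a-3p (8 and 1) and miR-203a-3p (7 and 4) had the higher share in the MCF-10A library. In the MDA-MB-231 library the share was higher for miR-200b-3p (3 and 9 counts), miR-429 (1 and 2) and miR-141-3p (0 and 2). The part of the epithelial miRNAs in the results below was not tested.

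The family took a larger part of the miRNA counts of MCF-10A sEVs than of MDA-MB-231 sEVs. The 9 members summed to 1217 counts in MCF-10A sEVs, which is 10.6% of the library (10.0 to 11.1%). They summed to 1044 counts in MDA-MB-231 sEVs, which is 5.67% (5.35 to 6.02%). The pooled share was thus 1.86-fold lower in MDA-MB-231 sEVs (1.71 to 2.02), where an equal share would have given 1942 counts. The intervals of the 2 shares did not overlap. Because miR-182-5p and miR-451a weigh so much in both totals, the family was also set against the counts of all miRNAs other than these. It then took 25.4% (24.1 to 26.6%) in the MCF-10A library and 19.2% (18.2 to 20.3%) in the MDA-MB-231 library, a ratio of 0.757 (0.696 to 0.823). Under TMM scaling, which sets the trimmed mean of the miRNAs' ratios equal between libraries, the ratio was 0.889 (0.817 to 0.966). Here and below, intervals under other scalings than the library total take the scaling as known and leave out its own error. The family was lower in MDA-MB-231 sEVs under each of these scalings, but by less than 1.5-fold once the dominant miRNAs no longer set the total.

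Let-7f-5p was the most abundant member in both libraries. It had 503 counts in MCF-10A sEVs, 4.36% of the library (4.00 to 4.75%), and ranked 3 of all miRNAs behind miR-182-5p and miR-451a. In MDA-MB-231 sEVs it had 390 counts, 2.12% (1.92 to 2.34%), and ranked 5, behind miR-3131 (542 counts) and miR-143-3p (447 counts) as well. The next miRNA after it was miR-21-5p in both libraries, with 354 and 356 counts, followed by let-7i-5p in the MCF-10A library and let-7g-5p in the MDA-MB-231 library. No other member reached 2% of either library.

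Let-7g-5p and let-7i-5p, the sequence relatives whose hairpins lay apart from the others considered here, came next and at nearly equal levels. Let-7g-5p had 186 counts in the MCF-10A library (1.61%, 1.40 to 1.86%) and 245 counts in the MDA-MB-231 library (1.33%, 1.18 to 1.51%). Let-7i-5p had 188 counts (1.63%, 1.42 to 1.88%) and 227 counts (1.23%, 1.08 to 1.40%). The intervals overlapped between the libraries for let-7g-5p, and for let-7i-5p they missed each other narrowly.

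Let-7a-5p, the member after which the others are usually described, and let-7b-5p were abundant in the MCF-10A library and less so in the MDA-MB-231 library. Let-7a-5p had 128 counts in the MCF-10A library (1.11%, 0.935 to 1.32%) and 66 counts in the MDA-MB-231 library (0.359%, 0.282 to 0.456%). Let-7b-5p had 133 counts (1.15%, 0.974 to 1.36%) and 49 counts (0.266%, 0.201 to 0.352%). By rank among all miRNAs, let-7a-5p moved from 9 to 14 and let-7b-5p from 8 to 24.

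The remaining members were low. Let-7c-5p had 44 counts in the MCF-10A library (0.382%, 0.284 to 0.512%) and 50 counts in the MDA-MB-231 library (0.272%, 0.206 to 0.358%). Let-7d-5p had 28 counts (0.243%, 0.168 to 0.351%) and 12 counts (0.0652%, 0.0373 to 0.114%). Let-7e-5p had 6 and 2 counts, and miR-98-5p had 1 and 3 counts. At this depth the last 2 members could not be told from one another in either library.

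**Figure D1:**
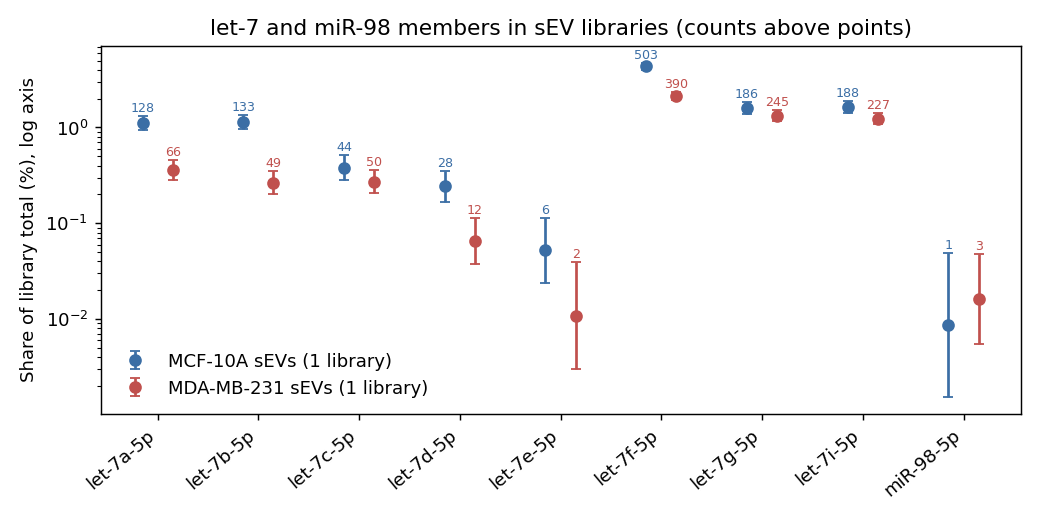
Share of the library total (%, log axis) of each of the 9 members in MCF-10A sEVs (blue) and MDA-MB-231 sEVs (red), 1 library each, with the count printed above each point and bars for the 95% Wilson interval. Let-7f-5p is highest in both libraries, with 503 and 390 counts, and let-7a-5p, let-7b-5p, let-7d-5p, let-7f-5p and let-7i-5p have intervals that do not overlap between the libraries.

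**Figure D2:**
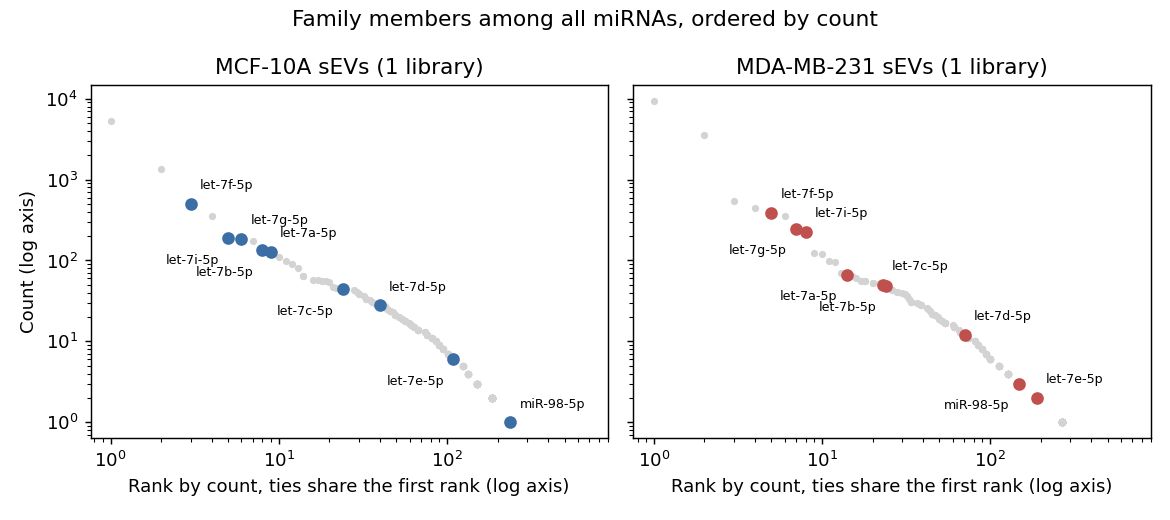
Count (log axis) against rank by count (log axis) for every miRNA with a count in each library (grey), with the family members coloured and named. In MCF-10A sEVs 5 of the 9 members are among the 10 most abundant miRNAs, and in MDA-MB-231 sEVs 3 of the 9 are.

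The members did not differ between the libraries by the same factor. Levels were compared as the log2 ratio of CPM (counts scaled to a common library total), to which a pseudocount of 1 was added. A miRNA entered when either library held at least 10 counts of it, and at least 2-fold was taken as lower or higher. A total of 7 members passed this minimum, while let-7e-5p and miR-98-5p did not. Of the 7, 4 were at least 2-fold lower in MDA-MB-231 sEVs (let-7a-5p, let-7b-5p, let-7d-5p and let-7f-5p), which is 57.1%, against 45 of all 109 miRNAs tested, or 41.3%. None of the 7 was at least 2-fold higher, against 17 of the 109, or 15.6%. By the other measure, an interval of the ratio of shares wholly below 1, 5 of the 7 members were lower (the same 4 and let-7i-5p), against 46.8% of the 109, and 0 of the 7 had an interval wholly above 1, against 16.5% of the 109. With 7 members these counts lie near the background of a table in which most miRNAs had lower shares in MDA-MB-231 sEVs. The median log2 ratio was −0.72 over the 109 miRNAs and −1.04 over the 7 members.

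Let-7b-5p had the largest fold among the 7 members, though its interval overlapped those of let-7a-5p and let-7d-5p, with a share 4.33-fold lower in MDA-MB-231 sEVs (3.10 to 6.14). Let-7d-5p was 3.72-fold lower (1.83 to 8.04), with a wide interval. Let-7a-5p was 3.10-fold lower (2.28 to 4.23). All 3 lay below the typical miRNA of the table, at −1.40, −1.18 and −0.91 on the log2 scale relative to the median of the 109.

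Let-7f-5p was 2.06-fold lower (1.80 to 2.36), just past the threshold, and −0.32 relative to that median. Let-7i-5p was 1.32-fold lower (1.08 to 1.61) under the library total. Its ratio was above 1 under the 4 other scalings, with an interval wholly above 1 under TMM and without the top 10 miRNAs, and one that held 1 under the other pair. The ratio of shares was 0.825 for let-7g-5p (0.679 to 1.00) and 0.712 for let-7c-5p (0.465 to 1.09), and both intervals held an equal share, the first of them at its very edge. Relative to the median of the 109, let-7g-5p stood at 0.44, let-7i-5p at 0.32 and let-7c-5p at 0.23. The direction of these last 3 therefore depended on the scaling, and under TMM their ratios were 1.37 (1.12 to 1.66), 1.25 (1.03 to 1.53) and 1.18 (0.769 to 1.81), the last with an interval that held an equal share.

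The low members gave wide intervals. Let-7e-5p, with 6 and 2 counts, had a ratio of shares of 0.209 with an interval from 0.0206 to 1.17, which holds an equal share. No fold is given for miR-98-5p, whose counts of 1 and 3 were both at or under the 3 counts that a 0 allows.

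The calls depended on the scaling. Under TMM scaling, which shifted every log2 ratio by 0.73, the number of members at least 2-fold lower was 2 (let-7b-5p and let-7d-5p) against 28 of the 109 miRNAs, and 0 members were at least 2-fold higher against 24. Among all 2-fold calls of the table, 27.4% were higher under the library total and 46.2% under TMM.

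The make-up of the family does not depend on how the libraries are scaled, and it differed between them. Let-7g-5p held 15.3% of the family's counts in the MCF-10A library (13.4 to 17.4%) and 23.5% in the MDA-MB-231 library (21 to 26.1%). Let-7i-5p held 15.4% (13.5 to 17.6%) and 21.7% (19.3 to 24.4%). Together the pair, joined with these counts known, went from 30.7% (28.2 to 33.4%) to 45.2% (42.2 to 48.2%), an odds ratio against the other 7 members of 1.86 (exact conditional interval 1.56 to 2.22).

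Let-7b-5p held 10.9% of the family in the MCF-10A library (9.30 to 12.8%) and 4.69% in the MDA-MB-231 library (3.57 to 6.15%). Let-7a-5p held 10.5% (8.92 to 12.4%) and 6.32% (5.00 to 7.96%). Let-7f-5p held 41.3% (38.6 to 44.1%) and 37.4% (34.5 to 40.3%), and its odds ratio against the other members was 0.846 with an interval from 0.712 to 1.01, which holds 1. Of the 9 members, 2 had an odds ratio whose interval lay wholly above 1 (let-7g-5p and let-7i-5p), 2 had one wholly below 1 (let-7a-5p and let-7b-5p), and 5 had one that held 1.

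Ratios between members in 1 library do not depend on scaling either, and 9 pairs were computed. Let-7g-5p had 1.40 counts for each count of let-7b-5p in the MCF-10A library and 5.00 in the MDA-MB-231 library, a change of 3.57-fold (2.41 to 5.34). Let-7c-5p had 0.331 and 1.02 counts for each count of let-7b-5p, a change of 3.07-fold (1.77 to 5.37), and these 2 members are 1 base apart. Let-7g-5p and let-7i-5p kept nearly the same ratio to each other, 0.989 and 1.08 (change 1.09-fold, 0.824 to 1.44). The pairs named here were picked after the counts were seen.

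With the 5 members of the chain of 1-base neighbours merged, the chain went from 814 counts in the MCF-10A library to 557 in the MDA-MB-231 library. It held 66.9% of the family in the first library (64.2 to 69.5%) and 53.4% in the second (50.3 to 56.4%). These values do not depend on how reads were split among the members, but would if a read was counted for more than 1 member. Outside the family, some miRNAs with similar names had equal counts in both libraries, such as miR-199a-3p and miR-199b-3p (7 and 6 each). No pair of members 1 base apart had equal counts in either library. For example, let-7a-5p had 128 and 66 counts and let-7e-5p had 6 and 2. Whether let-7 reads were counted more than once was not tested. The ratio of the chain's shares of the libraries was 0.429 (0.384 to 0.478).

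In MCF-10A sEVs the order of members from highest to lowest was let-7f-5p, let-7i-5p, let-7g-5p, let-7b-5p, let-7a-5p, let-7c-5p, let-7d-5p, let-7e-5p and miR-98-5p. Neighbours in this order were separated beyond counting error in 4 of 8 pairs. Let-7f-5p stood 2.68-fold above let-7i-5p (2.26 to 3.18), let-7g-5p 1.40-fold above let-7b-5p (1.11 to 1.76), let-7a-5p 2.91-fold above let-7c-5p (2.05 to 4.20) and let-7d-5p 4.67-fold above let-7e-5p (1.90 to 13.8). The pairs let-7i-5p and let-7g-5p, let-7b-5p and let-7a-5p, let-7c-5p and let-7d-5p, and let-7e-5p and miR-98-5p were not separated.

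In MDA-MB-231 sEVs the order was let-7f-5p, let-7g-5p, let-7i-5p, let-7a-5p, let-7c-5p, let-7b-5p, let-7d-5p, miR-98-5p and let-7e-5p. Again 4 of 8 neighbouring pairs were separated. Let-7f-5p stood 1.59-fold above let-7g-5p (1.35 to 1.88), let-7i-5p 3.44-fold above let-7a-5p (2.60 to 4.60), let-7b-5p 4.08-fold above let-7d-5p (2.14 to 8.43) and let-7d-5p 4.00-fold above miR-98-5p (1.08 to 22.1). Let-7a-5p and let-7c-5p, let-7c-5p and let-7b-5p, let-7g-5p and let-7i-5p, and miR-98-5p and let-7e-5p were not separated. Both orders thus began with let-7f-5p followed by the pair let-7g-5p and let-7i-5p. The member that moved the most places was let-7b-5p, which was well above let-7c-5p in the first library and level with it in the second.

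Where both arms were listed, counts came almost wholly from the 5p arm, which is the usual guide strand of let-7 hairpins. Of the 3p arms, 4 were listed. Let-7a-3p had 0 counts in the MCF-10A library and 1 in the MDA-MB-231 library, let-7d-3p and miR-98-3p had 1 and 0 counts each, and let-7i-3p had 0 in both. Of the summed counts of the 9 members and these 4 arms, the members held 99.84% in MCF-10A sEVs (exact binomial interval 99.41 to 99.98%), with 2 counts on 3p arms. In MDA-MB-231 sEVs they held 99.9% (99.47 to 100%), with 1 count on a 3p arm. These sums include members whose 3p arm was not listed. For the 4 members with both arms listed, the 5p arm held 99.42% in MCF-10A sEVs (345 counts, 97.93 to 99.93%). In MDA-MB-231 sEVs it held 99.68% (308 counts, 98.21 to 99.99%). The 2 other listed miRNAs with the same bases 2 to 8, miR-4458 and miR-4500, had 0 counts in both libraries. Among 981 seeds of the 1175 listed miRNAs with a RefSeq sequence, the let-7 seed ranked 2 by summed counts in both libraries, after the seed of miR-182-5p. These miRNAs held 85.5% of the counts in the MCF-10A library and 78.5% in the MDA-MB-231 library. The rank leaves out miR-451a, which was not matched and alone had more counts (1360 and 3577) than the let-7 seed (1217 and 1044).

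The miRNAs that neighbour let-7 hairpins in the genome were low or middling. miR-99a-5p, next to let-7c, had 54 counts in the MCF-10A library and 52 in the MDA-MB-231 library, and its share was 1.66-fold lower in the latter (1.11 to 2.47). Its count for each count of let-7c-5p was 1.23 and 1.04, and the interval of the change, 0.848-fold (0.468 to 1.53), held 1. miR-99b-5p and miR-125a-5p, which flank let-7e, had 16 and 11 counts and 2 and 2 counts, beside 6 and 2 for let-7e-5p. miR-100-5p, near let-7a-2, had 6 and 11 counts, and miR-125b-5p, a relative of lin-4 made from a locus near let-7a-2 and another near let-7c, had 5 and 8 counts. miR-4763-3p, beside let-7b, had 0 counts in both.

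The 9 miRNAs looked up as markers of blood and serum, which culture medium can carry, summed to 12.2% of the counts in the MCF-10A library (11.6 to 12.8%) and 20.2% in the MDA-MB-231 library (19.6 to 20.8%). Without miR-451a they summed to 0.416% (0.314 to 0.552%) and 0.728% (0.615 to 0.862%), mostly from miR-486-5p with 29 of 48 counts and 96 of 134. Of the 9, miR-451a (ratio of shares 1.65, 1.55 to 1.76) and miR-486-5p (2.08, 1.36 to 3.26) had intervals above 1. The intervals of miR-144-3p, miR-142-3p and miR-122-5p held 1. Among them miR-144-5p and miR-150-5p were at 0 in both libraries, and miR-223-3p and miR-142-5p, at 0 in MCF-10A sEVs, had 3 and 2 counts in the other library. Let-7 miRNAs are also plentiful in blood and are the same in sequence in many mammals. The part of medium in the family's counts was not tested.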

How the data were processed

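Small RNA sequencing of sEVs was analysed from 1 MCF-10A and 1 MDA-MB-231 library. Per the labels, chemical ends and methyl groups that hinder library making were taken off the RNA, and small inserts were selected, so the counts depend on ligation and amplification. For each mature miRNA the deposited table gives whole-number counts and CPM values, the latter equal to the count scaled to the library total. The submitters' processing notes name FastQC, cutadapt, Bowtie, edgeR and hg38. Their settings, the miRBase release and the counting of reads matching several miRNAs are not given in the sources used here.

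The counts were used for all results. Shares carry 95% Wilson intervals, ratios of shares exact conditional binomial intervals, shares of arms exact binomial intervals, and shares within the family exact conditional odds ratios. Neighbours in an order were called separated where the interval of the ratio of their counts lay above 1. Calls of 2-fold rested on log2 ratios after adding a pseudocount of 1 to CPM, and on a minimum of 10 counts in 1 library. The pooled family, the members, the 3p arms, miRNAs with the same seed, genomic neighbours, the most abundant miRNAs and 2 marker lists are named. The members and lists were chosen with earlier results of these data known. Scaling, pseudocount, minimum, threshold and the merging of near-identical members were varied. edgeR 4.0.16 (R 4.3.3) gave the TMM factors. Intervals were computed with scipy 1.17.1 in Python 3.11.15, after a test of the code on simulated data. Sequences and positions came from RefSeq (GRCh38.p14) and GENCODE v29.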

Additional observations from a re-analysis of the deposited data

How the results depend on the processing

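No paired analysis was possible because each cell line had a single library. The pooled ratio of shares, 0.538 under the library total, was 0.889 with TMM, 0.858 with median-of-ratios factors, 0.893 when the top 10 miRNAs of either library were left out of the total and 0.757 when miR-182-5p and miR-451a were. It stayed below 1 under all 4. It was 0.574 without let-7f-5p, and 0.538 with the other miRNAs of the same seed. The pooled share in MCF-10A sEVs was 25.4% without miR-182-5p and miR-451a and 2.70% without the top 10 miRNAs, a set that holds 5 of the 9 members. In MDA-MB-231 sEVs it was 19.2% and 2.38%. The shares of 2.70% and 2.38% count only the 4 members left, while the ratio of 0.893 keeps all 9 members and changes the total alone. The 4 members at least 2-fold lower became 2 with TMM, median-of-ratios factors and the total without the top 10, and 1 (let-7b-5p) at 4-fold. They were 3 of 7 without miR-182-5p and miR-451a (31 of all 109 miRNAs), 3 of 6 with a minimum of 50 counts (12 of 30), 5 of 9 with no minimum (288 of 684), and 4 of 7 with either other pseudocount (45 of 109) and at 1.5-fold (59 of 109). No member was at least 2-fold higher under any of the 10. Over all miRNAs, the 45 at least 2-fold lower of 109 became 28 under each of the first 3 settings and 26 at 4-fold, and the 17 higher became 5 of 30 with a minimum of 50 counts and 242 of 684 with none. Let-7i-5p, with a ratio of 0.757, turned to 1.25 (1.03 to 1.53) with TMM, 1.21 (0.991 to 1.47) with median-of-ratios factors, 1.26 (1.03 to 1.53) without the top 10 and 1.07 (0.874 to 1.30) without miR-182-5p and miR-451a. With members 1 base apart merged, the family share of the group that holds let-7a-5p and let-7f-5p was 66.9% in the MCF-10A library and 53.4% in the MDA-MB-231 library. The separated neighbours were then 3 of 4 in each library, and the shares of 5p arms stayed within their intervals for the hairpins with both arms listed. Depth limits let-7e-5p and miR-98-5p, since 1 count is 86.7 CPM in the MCF-10A library and 54.4 CPM in the MDA-MB-231 library.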

Other observations

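The study followed VHL in adipose tissue, chiefly of mice. The mouse transcript was not searched. Only the human transcript of VHL was searched for the complement of the let-7 seed. The 2255 bases of its longest 3′ UTR in GENCODE v29 held 0 matches on the transcribed strand to the 7 letters CUACCUC and 0 to the last 6 of them, UACCUC. In the first 2255 bases of the 5074 other 3′ UTRs at least as long, 12.1% held the former and 34.4% the latter. The search was chosen after the counts were seen, and it describes these letters in this window, not whether any member acts on VHL.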
